A study of Mus musculus with 22 samples.

Results

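Ribosomes, which translate all cellular mRNA, are built from ribosomal RNA and a fixed set of proteins, and the genes of these proteins are the subject here. A gene belonged to the set if it was protein-coding, its symbol was Rpl or Rps with a number, or it was Rplp0, Rplp1, Rplp2 or Rpsa, and it had 10 or more reads in at least 5 libraries. Of 83 candidates, 80 qualified, among 35596 genes in the files. The 3 left out were the paralogues Rpl3l, Rpl39l and Rpl10l, whose highest counts in any library were 12, 21 and 2 reads. The 80 genes encode 45 proteins of the large subunit, 32 of the small subunit and the 3 proteins of the P stalk, a flexible arm of the large subunit that recruits translation factors. The members and all gene lists below were chosen with earlier results of these data known.

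The 22 libraries came from microglia, the resident macrophages of neural tissue, sorted from retinas of 12-week-old mice. They formed 4 groups, namely phagocytic (n = 6) and non-phagocytic (n = 6) microglia of Apoe-/- mice, which lack the lipid carrier apolipoprotein E, and phagocytic (n = 5) and non-phagocytic (n = 5) microglia of wild-type C57BL/6 mice. All animals had received apoptotic neurons by injection into the vitreous, 24 hours before profiling per the file headers. Cells were sorted as CD11b+ Fcrls+ Ly6c-, and the dye Alexa488 told phagocytic cells from the others. Each sample pooled 5 to 6 retinas by sex and genotype, and which sex went into which pool is not labelled. The p-values below thus refer to variation among pools. Libraries were made by SMART-Seq2, which copies whole mRNAs from few cells, on lysates of 100 to 300 cells.

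In mammals, ribosomal protein genes are among the most strongly transcribed genes of every cell, and their mRNAs are known to be translated in concert. Most of these mRNAs begin with a C followed by a run of pyrimidines, the 5′ terminal oligopyrimidine (TOP) motif, through which the growth kinase mTORC1 and the RNA-binding protein Larp1 control their translation. Each gene has also left intronless copies elsewhere in the genome, most of them processed pseudogenes, whose sequence can be identical to the mRNA.

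The start regions of genes that the results turn on are shown because the TOP motif, where present, lies at the start of the mRNA. Each sequence runs 5′ to 3′ from 10 bases before to 20 bases from the RefSeq transcription start (build GRCm38.p6), and capitals mark the run of a C followed by 4 or more pyrimidines that lies nearest to the start. No such run lay in the window of Rpl41, which is in lower case throughout. The run began 2 bases before the start in Rps27, where the start base was itself a C followed by 4 or more pyrimidines. It began after the annotated start in Rpl12 (by 2 bases), Rpl22l1 (3), Rps2 (4) and Rps7 (7), so there it is not a TOP motif as defined above.
Rps2, chr17:24720053-24720082, plus strand: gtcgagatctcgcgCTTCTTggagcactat
Rps7, chr12:28635934-28635963, minus strand: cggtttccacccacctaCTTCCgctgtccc
Rps27, chr3:90213629-90213658, minus strand: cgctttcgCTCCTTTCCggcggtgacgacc
Rpl12, chr2:32961702-32961731, plus strand: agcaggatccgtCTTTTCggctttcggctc
Rpl22l1, chr3:28805498-28805527, plus strand: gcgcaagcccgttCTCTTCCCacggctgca
Rpl41, chr10:128549149-128549178, minus strand: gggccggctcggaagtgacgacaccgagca
Of the members, 60 had a RefSeq start, 71 starts in all. The start base was a C followed by 4 or more pyrimidines in 18.3% of these 71, against 2.51% of all 32851 RefSeq starts. Starts inside a run that began upstream, as in Rps27, count here. A run lay anywhere in the window in 59.2% of the 71, against 35.8% of all starts. The letters CCGGAAG, on either strand of the 300 bases from 250 before to 50 after the start, were found at 36.6% of the members' starts and 8.86% of all starts. TATAAA, searched in the same way, was found at 9.86% of the members' starts and 13.6% of all starts. These matches describe letters only, and starts in the annotation can lie some bases away from the start used in these cells.

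Libraries held 1131240 to 3643670 estimated reads on genes, of which 9.13% to 51.7% lay on 12 predicted genes treated here as satellite-like. Apoe had 8.91 to 34.9 CPM in Apoe-/- phagocytic and 7.02 to 17.6 CPM in Apoe-/- non-phagocytic libraries, against 1317 to 5145 CPM in wild-type phagocytic and 869 to 1604 CPM in wild-type non-phagocytic libraries. CPM are read counts scaled to a common library total after TMM normalization. The microglial markers Cx3cr1 and Csf1r lay above 936 CPM in every library. Other microglial markers were lower, with P2ry12 between 42.3 and 516 CPM and Fcrls between 132 and 931 CPM over all libraries.

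All 80 genes were expressed. Per transcript length, their mean level over the 22 libraries was between 37.2 and 2668 TPM (transcript abundance scaled to a fixed library total), with a median of 746 TPM. Rpl41, which encodes the smallest ribosomal protein, was highest (2668 ± 795 TPM, SD, n = 22), and Rplp1 of the P stalk came next (2448 ± 742 TPM). The 3 lowest were Rpl5, a large-subunit protein that travels with the 5S ribosomal RNA (37.2 ± 15.6 TPM), Rpl7l1, a paralogue of Rpl7 (44.5 ± 15.3 TPM), and Rpl12, which forms the base of the P stalk (73.8 ± 32.2 TPM). Equal amounts of the core proteins enter each ribosome, yet the mean levels as deposited spanned 71.8-fold.

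The low levels of Rpl5 and Rpl12 went with reads placed on near-identical copies. A search of all transcripts against the members' coding sequences, at 90% identity over 80% of the length, found 949 copies, of which 927 were processed pseudogenes, 19 were annotated as protein-coding and 3 were unprocessed pseudogenes. Together the copies held 18.0% of the reads of members and copies. For Rpl5, 95.4% of these reads lay on copies (92.9% to 98.2% across libraries), nearly all on Gm15500 on chromosome 7 (114705217 to 114706235), identical over 894 aligned bases. For Rpl12 the share on copies was 86.6% (77.4% to 91.4%), mostly on Gm10275, and for Rps12, a small-subunit protein, it was 89.5% (77.2% to 94.1%). The share was 74.1% for Rpl10 of the large subunit. In all, 11 members had 50% or more of the reads on copies, 16 had 20% to 50%, 18 had 1% to 20% and 35 had under 1%. Of those under 1%, 6 had no copy by this search, among them Rpl8, Rpl41, Rps3 and Rps27l. The estimated counts divide reads between sequences that are alike, so the level of a member with a large share on copies is uncertain.

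**Figure D1:**
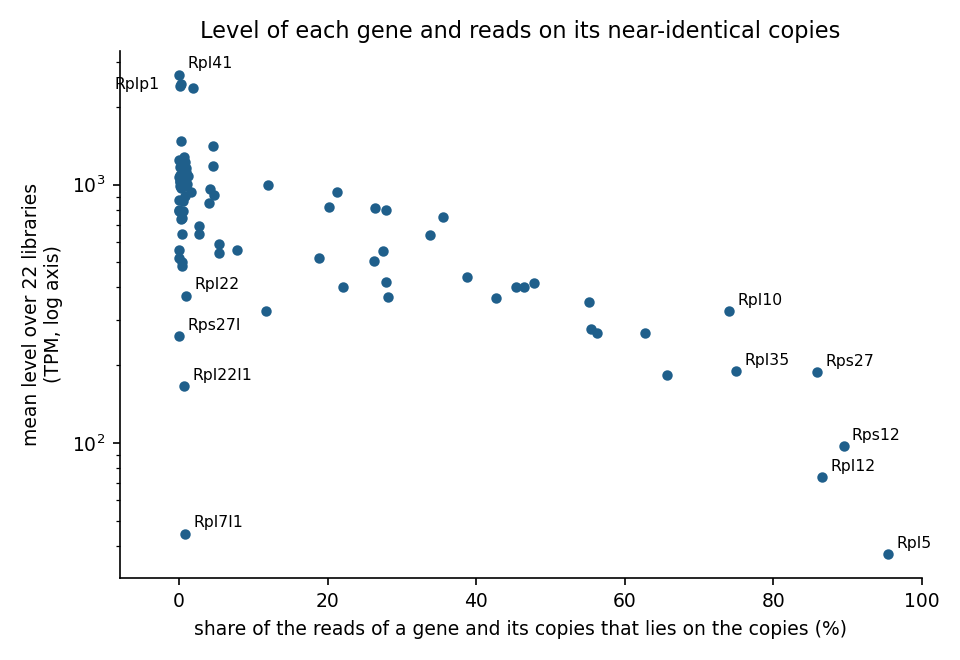
Mean level of each of the 80 genes over 22 libraries (vertical axis, TPM, log scale) against the share of the reads of the gene and its near-identical copies that lies on the copies (horizontal axis, %). Each point is a gene. The genes with 85% or more of these reads on copies (Rpl5, Rps12, Rpl12 and Rps27) are among the lowest, while Rpl7l1, Rpl22l1 and Rps27l are low with less than 1% on copies.

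With the TPM of the copies added, the order at the low end changed. Rps12 reached 2063 TPM with its copies, against 97.3 TPM alone, Rpl12 reached 1227 TPM and Rpl5 reached 1007 TPM. The median over members was then 1009 TPM, and 76 members lay above 400 TPM, against 62 without copies. The lowest members with copies were Rpl7l1 (45.0 TPM), Rpl22l1 (168 TPM), Rps27l (259 TPM) and Rpl22 (377 TPM). The first 3 are the members that are named as paralogues of another ribosomal protein gene. Rpl22l1, which can take the place of Rpl22 in the ribosome, had a TPM of 0.31 to 0.61 times that of Rpl22 in Apoe-/- phagocytic libraries (median ratio 0.39), 0.34 to 0.73 times in Apoe-/- non-phagocytic libraries (0.48), 0.36 to 0.52 times in wild-type phagocytic libraries (0.45) and 0.38 to 0.53 times in wild-type non-phagocytic libraries (0.42). The 4 ranges overlap. Rpl7l1 reached 0.0698 to 0.15 times the TPM of Rpl7 over all libraries.

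Rps27, a zinc-binding small-subunit protein, has relatives of different closeness. Their coding sequences follow, 255 bases each (annotation GENCODE M21, build GRCm38), because the results for Rps27 depend on them. Capitals mark bases that differ from Rps27 at the same position.
Rps27, chr3:90212522-90213651, minus strand: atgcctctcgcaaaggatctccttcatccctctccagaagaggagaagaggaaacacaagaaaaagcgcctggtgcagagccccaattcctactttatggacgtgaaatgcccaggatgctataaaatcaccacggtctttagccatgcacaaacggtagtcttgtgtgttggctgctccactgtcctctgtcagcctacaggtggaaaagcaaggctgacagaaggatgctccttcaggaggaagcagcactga
Rps27rt, chr9:114982366-114982739, minus strand: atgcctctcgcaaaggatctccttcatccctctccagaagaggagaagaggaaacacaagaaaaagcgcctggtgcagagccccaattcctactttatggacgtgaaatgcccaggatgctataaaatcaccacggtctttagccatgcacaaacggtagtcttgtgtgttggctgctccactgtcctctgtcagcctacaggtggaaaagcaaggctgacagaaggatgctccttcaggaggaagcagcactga
Rps27l, chr9:66946086-66949516, plus strand: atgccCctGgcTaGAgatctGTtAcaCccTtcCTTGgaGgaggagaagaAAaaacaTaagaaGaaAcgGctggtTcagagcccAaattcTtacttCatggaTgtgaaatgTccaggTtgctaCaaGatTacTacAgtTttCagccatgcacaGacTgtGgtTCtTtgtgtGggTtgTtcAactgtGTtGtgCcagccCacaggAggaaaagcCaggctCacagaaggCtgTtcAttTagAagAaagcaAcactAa
Rps27rt has the same 255 bases as Rps27, with 0 differences, whereas Rps27l differs at 61 of them (76.1% identity). Of the reads of Rps27 and its copies, 85.9% lay on copies, nearly all on Rps27rt, and this share ran from 26.9% to 98.3% between libraries. Rps27 was the most variable member within groups (SD 1.33 on the log2 scale). Rps27l, whose reads can be told from those of Rps27, had a TPM of 0.253 to 16.3 times that of Rps27 in Apoe-/- phagocytic libraries (median ratio 2.398), 1.23 to 3.81 times in Apoe-/- non-phagocytic (2.97), 0.88 to 6.87 times in wild-type phagocytic (2.61) and 1.00 to 7.36 times in wild-type non-phagocytic libraries (2.33). All 4 ranges overlapped. These ratios use only the reads placed on Rps27 itself. Over the 22 libraries Rps27 had a mean of 188 TPM alone and 1423 TPM with its copies, against 259 TPM for Rps27l. The ratios thus do not show that Rps27l exceeds Rps27.

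Across libraries the genes moved together. The Pearson correlation of a member's log2 CPM with the mean of the other members had a median of 0.90 over the 80 genes and was above 0.7 for 68 of them (22 libraries, whose depth and scaling the points share). The 5 members under 0.3 were Rpl5, Rpl12, Rps27, Rpl7l1 and Rpl10. The spread within groups had a median SD of 0.34 (log2) over the members, against 0.39 over 3587 other genes in the same range of levels. Within groups the genes lay high or low together. In replicate 1 of the wild-type non-phagocytic group, 77 members lay above their own mean over libraries. The same held for 79 members in replicate 3 and 71 in replicate 2 of the Apoe-/- non-phagocytic group, and for 78 in replicate 2 of the wild-type phagocytic group. Only 5 members lay above their mean in replicate 6 of the Apoe-/- non-phagocytic group, the library with the most genes detected (21790), and 1 did in replicate 1 of that group.

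**Figure D2:**
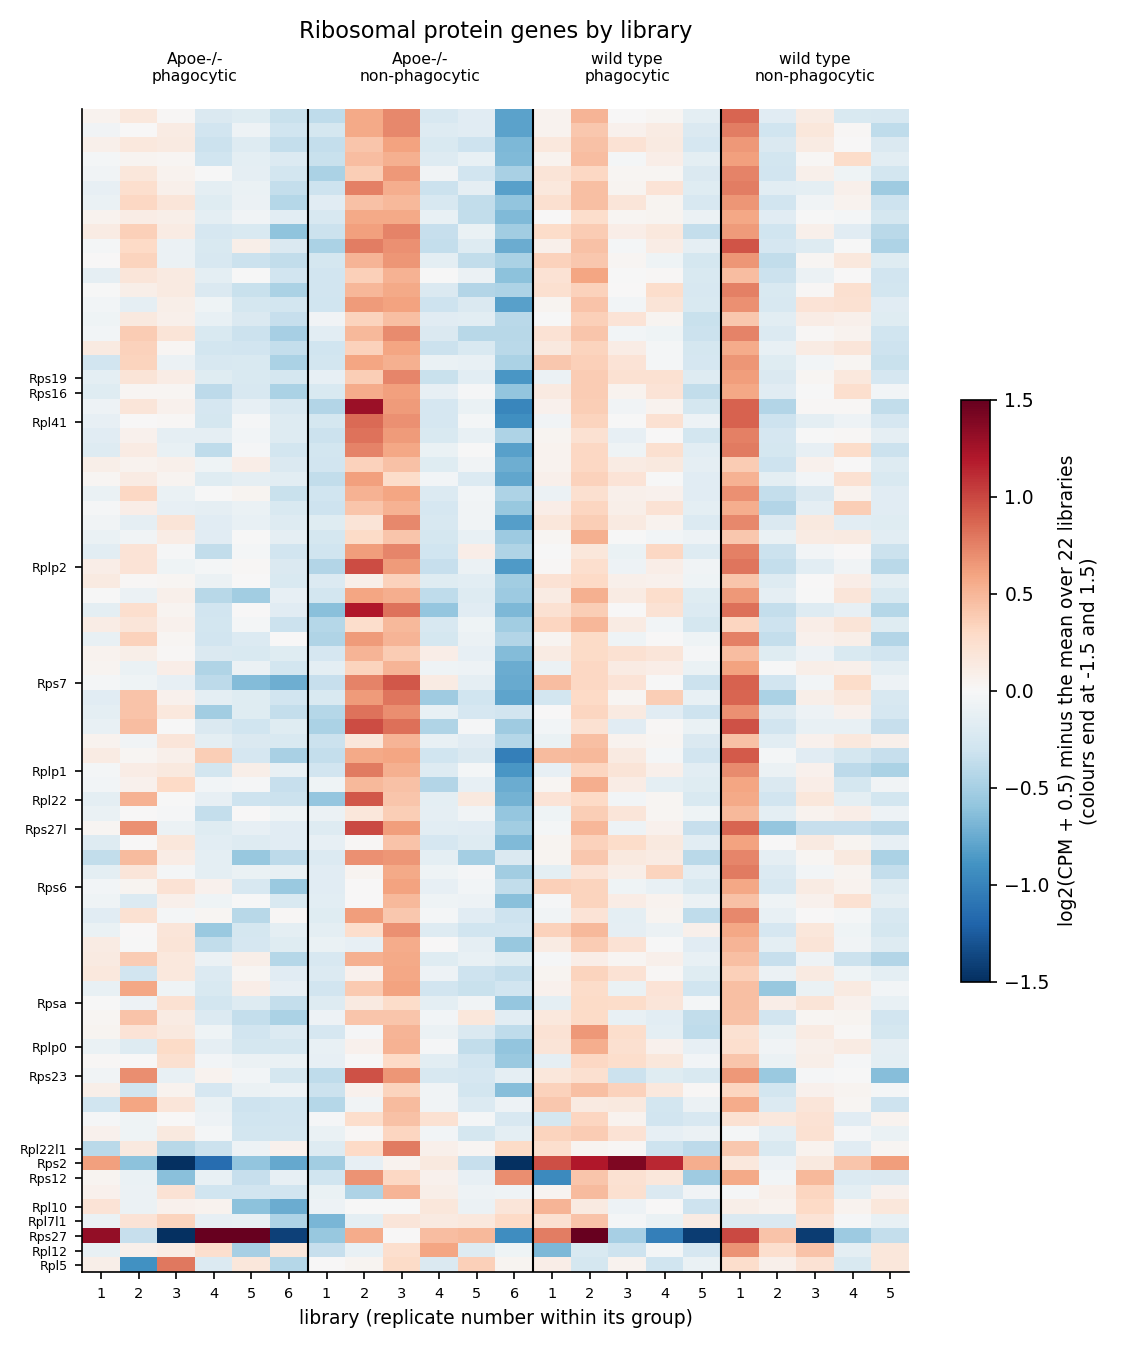
Deviation of each gene (rows) in each library (columns, by group) from its mean over 22 libraries, as log2(CPM + 0.5), on a colour scale that ends at -1.5 and 1.5. Of the 80 rows, some of those described in the text are labelled. Rows run from the gene that follows the other members most closely to the one that follows them least. Whole columns are red or blue, most of all in the 2 non-phagocytic groups, and Rps2, Rps27, Rpl12 and Rpl5 depart from their columns.

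The members together took 4.14 ± 0.369% of the reads outside satellite-like genes in Apoe-/- phagocytic libraries (SD, n = 6), 4.61 ± 1.19% in Apoe-/- non-phagocytic (n = 6), 4.50 ± 0.388% in wild-type phagocytic (n = 5) and 4.78 ± 0.983% in wild-type non-phagocytic libraries (n = 5). The 4 ranges overlapped, from 3.71% to 4.67%, 3.23% to 6.19%, 3.90% to 4.99% and 4.08% to 6.46% in the same order. The highest libraries were replicate 1 of the wild-type non-phagocytic group (6.46%) and replicates 3 (6.19%) and 2 (5.95%) of the Apoe-/- non-phagocytic group. With the reads of near-identical copies added, the means were 5.06% in Apoe-/- phagocytic, 5.601% in Apoe-/- non-phagocytic, 5.503% in wild-type phagocytic and 5.83% in wild-type non-phagocytic libraries. In bulk samples, fewer cells of a type and less RNA per cell cannot be told apart.

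**Figure D3:**
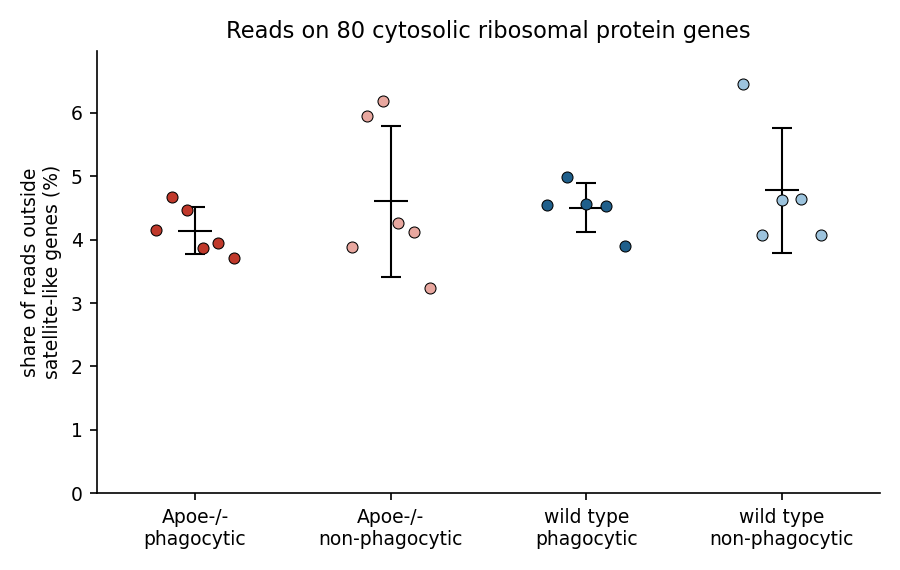
Share of reads outside satellite-like genes that lay on the 80 genes (vertical axis, %), by group. Points are libraries, bars are mean ± SD. The phagocytic libraries lie between 3.71% and 4.99%, and the non-phagocytic ones, between 3.23% and 6.46%, spread more widely around them.

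Of the members' reads, most lay on protein-coding transcripts, and 5.25 ± 0.655% in Apoe-/- phagocytic, 6.97 ± 1.69% in Apoe-/- non-phagocytic, 5.29 ± 0.248% in wild-type phagocytic and 6.41 ± 1.16% in wild-type non-phagocytic libraries lay on transcripts annotated with a retained intron. The groups overlapped. This share was over 50% for 5 members, among them Rps16 (77.4%), Rpl12 (70.7%) and Rps12 (69.0%), and under 5% for 58.

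The first comparison asked which members differed between phagocytic and non-phagocytic cells of wild-type retinas. The family as a whole stood level, with a median log2 fold change of 0.00 over the 80 genes (41 above 0) beside -0.01 over all 12415 genes tested. Rps2, a small-subunit protein near the mRNA entry, had the largest positive value (0.80 ± 0.32, log2 ± SE) and Rpl12 the largest negative one (-0.58 ± 0.20, and -0.20 with the reads of its copies added). Next to them stood Rps27 (0.28 ± 0.66) and Rpl5 (-0.21 ± 0.24), whose reads lie mainly on copies. For the P stalk, Rplp0 (0.14 ± 0.20), Rplp1 (0.05 ± 0.25) and Rplp2 (0.01 ± 0.27) lay near 0, as did Rpsa, which doubles as a laminin receptor (-0.03 ± 0.18), Rps6, the substrate of the S6 kinases (-0.01 ± 0.21), and Rps19, mutated in human Diamond-Blackfan anaemia (0.02 ± 0.24).

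By the quasi-likelihood test of edgeR, with p-values adjusted after Benjamini and Hochberg, 0 of 80 members passed the threshold of 0.05 in this comparison, where 0.209% of all genes tested did. At an unadjusted p under 0.05 there were 2 members (Rps2 and Rpl12), 2.5% of the 80, beside 7.74% of all genes, and DESeq2 and limma on log2 TPM called 0. For 0 members were the groups without overlap, against 2.14% of all genes. The SE had a median of 0.22 over the members and 0.37 over all genes, most of which lie outside the members' range of levels. The 95% intervals of 77 members lay within 2-fold either way, beside 45.5% of all genes, the exceptions being Rps2, Rpl12 and Rps27. Without replicate 1 of the wild-type non-phagocytic group the median was 0.19 with 75 members above 0, and without replicate 2 of the wild-type phagocytic group it was -0.07 with 19 above 0.

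Rpl12 had 47.6, 65.3, 61.7, 75.3 and 64.4 CPM in the wild-type phagocytic libraries, against 123, 91.2, 103, 68.8 and 86.2 CPM in the non-phagocytic ones. Only the lowest non-phagocytic library lay below a phagocytic one (adjusted p = 0.39, edgeR). With its copies, Rpl12 had 512 to 623 CPM in phagocytic against 516 to 1050 CPM in non-phagocytic wild-type libraries, and the ranges overlapped.

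The same comparison in Apoe-/- retinas gave a median of -0.09 over the members (12 of 80 above 0) beside -0.02 over all genes. The largest negative values were those of the small-subunit genes Rps7 (-0.52 ± 0.25) and Rps12 (-0.47 ± 0.23), and the largest positive ones those of Rps27 (1.10 ± 0.61) and Rps3, which also has a role in DNA repair (0.13 ± 0.16). With the reads of copies added, Rps7 stood at -0.26, Rps12 at -0.20 and Rps27 at -0.24. Rpl22l1 stood at -0.41 ± 0.18, with 69.2 ± 12.0 CPM (SD, n = 6) in phagocytic Apoe-/- cells, against 91.3 ± 22.6 CPM (n = 6) in non-phagocytic ones, while Rpl22 stood at -0.15 ± 0.23.

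edgeR called 0 of 80 members here, against 0.467% of all genes, and 2 members (Rps7 and Rpl22l1) had an unadjusted p under 0.05, beside 9.93% of all genes. DESeq2 and limma called 0, and the groups were without overlap for 0 members, beside 0.87% of all genes. The intervals of 78 members lay within 2-fold, the exceptions being Rps27 and Rps7. The sign of the median rested on single libraries and on the scale: it was 0.03 with 52 members above 0 without replicate 3 of the Apoe-/- non-phagocytic group and -0.01 with 34 above 0 without its replicate 2, and on log2 TPM it was 0.08 with 62 above 0, where the median of all genes was 0.07.

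**Figure D4:**
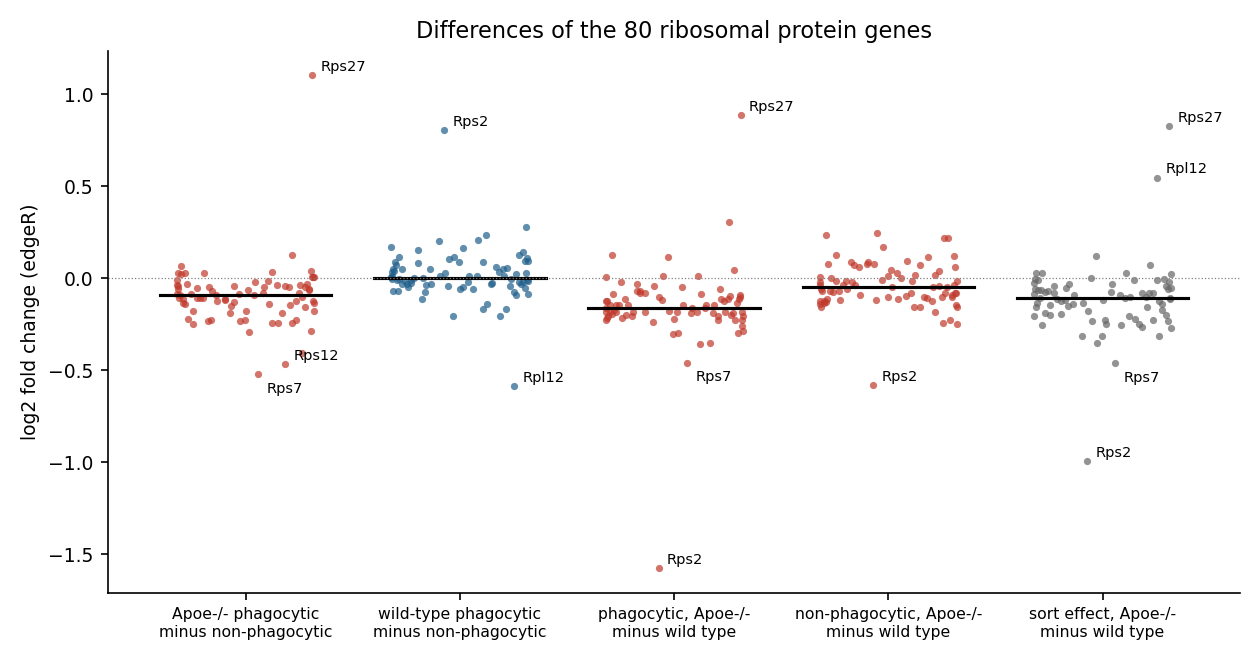
Log2 fold change (edgeR) of each of the 80 genes in the 5 comparisons; each point is a gene and black lines are medians, with Apoe-/- groups of the sort and genotype comparisons in red, the wild-type sort in blue and the difference of the sort effects in grey. Most points lie within 0.3 of 0, and Rps2 (-1.57 between the phagocytic groups) and Rps27 (1.10 in the Apoe-/- sort) lie farthest out.

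Between the genotypes in phagocytic cells, the members had a median of -0.16 and 72 of 80 had a negative value, beside a median of 0.00 over all genes. No member passed the test, and since the members vary together across libraries, their signs are not separate observations. Rps2 had the largest difference (-1.57 ± 0.31, 0.34-fold), followed by Rps7 (-0.46 ± 0.26), and Rps27 (0.89 ± 0.64) and Rpl12 (0.30 ± 0.20) had the largest positive values. With the reads of copies added, Rps7 stood at -0.28, and Rps27 (-0.23) and Rpl12 (-0.0284) turned negative. Rplp0, often used as a reference gene in qPCR, stood at -0.30 ± 0.19, Rpsa at -0.23 ± 0.17, Rps19 at -0.20 ± 0.22, Rps6 at -0.14 ± 0.20, Rplp1 at -0.08 ± 0.24 and Rplp2 at -0.04 ± 0.26. The median was -0.16 for the 45 large-subunit and for the 32 small-subunit genes, and -0.08 for the 3 genes of the P stalk. It was -0.18 for the 35 genes with under 1% of their reads on copies, of which 34 had negative values.

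By edgeR, 0 of 80 members passed the threshold between the phagocytic groups, beside 0.0322% of all genes, and 2 members (Rps2 and Rpl18) had an unadjusted p under 0.05, beside 6.62% of all genes. For 0 members were the 2 groups without overlap, beside 0.789% of all genes. The intervals of 78 members lay within 2-fold, the exceptions being Rps2 and Rps27. Leaving out each library in turn left the median between -0.22 and -0.08, with 3 to 15 members above 0. On log2 TPM it was -0.37 with 2 members above 0, where the median of all genes was -0.19, and with the replicate number as a block it was -0.09 with 17 above 0. That block joins same-numbered pools of the 2 genotypes, which no label links, so the last value is no check of the comparison.

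Rps2 alone came near the threshold (adjusted p = 0.0571, edgeR with Benjamini-Hochberg adjustment). It had 149, 265 and 655 CPM at its lowest, median and highest in the 6 Apoe-/- phagocytic libraries, against 835, 985, 1127, 934 and 623 CPM in the 5 wild-type phagocytic libraries. Replicate 1 of the Apoe-/- phagocytic group lay above the lowest wild-type library, and the other 5, between 149 and 284 CPM, lay below every wild-type phagocytic library. Without that replicate the log2 fold change was -1.97 (adjusted p = 0.000752, edgeR), and without replicate 5 of the wild-type group it was -1.68 (adjusted p = 0.0418, edgeR). Of the 11 fits that each left out 1 library, only these called Rps2. DESeq2 called Rps2 lower on all libraries (-1.56, adjusted p = 0.000431), limma on log2 TPM did so with a pseudocount of 1 (-1.86, adjusted p = 0.0272) and not with 0.1 (adjusted p = 0.0707), and a fit of the 2 phagocytic groups alone gave an adjusted p of 0.198. Of the reads of Rps2 and its 43 copies, 7.83% lay on copies, and with them added the difference was -1.40 (adjusted p = 0.0543, edgeR). A single transcript of 998 bases held 93.2% of the reads of Rps2.

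In non-phagocytic cells Rps2 had 132, 363 and 474 CPM at its lowest, median and highest in the Apoe-/- group, against 475, 406, 472, 569 and 660 CPM in the wild-type group. These ranges overlapped (-0.58 ± 0.30, adjusted p = 1.0, edgeR). In the wild-type phagocytic group, 4 of 5 libraries lay above every library of the other groups in Rps2. The effect of the sort on Rps2 differed by -0.99 ± 0.43 (Apoe-/- minus wild type, log2, unadjusted p = 0.0295, adjusted p = 1.0, edgeR).

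**Figure D5:**
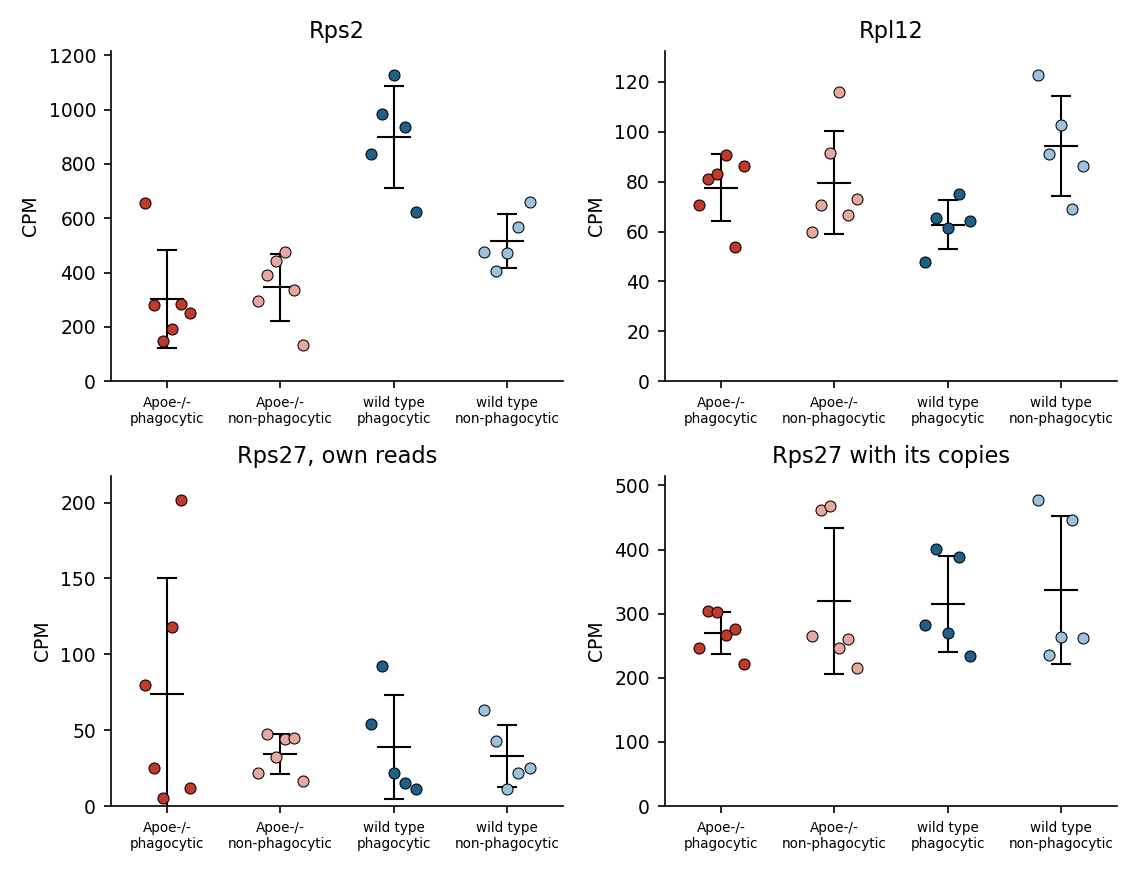
CPM of Rps2, Rpl12 and Rps27 by group, and of Rps27 with the reads of its near-identical copies added (vertical axes start at 0). Points are libraries, bars are mean ± SD. Rps2 is highest in wild-type phagocytic libraries (623 to 1127 CPM), and the wide spread of Rps27 in Apoe-/- phagocytic libraries (5.01 to 202 CPM) is narrower with copies (222 to 304 CPM).

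Rps27 had 5.01, 52.3 and 202 CPM at its lowest, median and highest in Apoe-/- phagocytic libraries, against 54.3, 92.0, 22.3, 15.4 and 11.5 CPM in wild-type phagocytic libraries. With Rps27rt and the other copies added, the same libraries had 222, 271 and 304 CPM, against 234, 282 and 401 CPM at the lowest, median and highest. The positive values of Rps27 turned negative with copies added in all 4 comparisons named for it, with -0.09 in the wild-type sort, -0.24 in the Apoe-/- sort, -0.23 between the phagocytic groups and -0.15 in the difference of the sort effects.

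Rps7 had 132 to 214 CPM in Apoe-/- phagocytic libraries, against 176 to 303 CPM in wild-type phagocytic libraries, and the groups overlapped (adjusted p = 0.798, edgeR). Of its reads with copies, 28.1% lay on copies.

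Between the non-phagocytic groups the members had a median of -0.05, with 27 of 80 above 0, beside 0.00 over all genes. Rps2 had the largest negative value (-0.58 ± 0.30), and Rps27l, a p53 target in human cells (0.25 ± 0.28), and Rps23, which lines the decoding centre (0.24 ± 0.26), the largest positive ones. edgeR called 0 of 80 members, beside 0.0161% of all genes, 0 members had an unadjusted p under 0.05, beside 3.8% of all genes, and DESeq2 and limma called 0. Groups were without overlap for 0 members, beside 0.298% of all genes, and 78 intervals lay within 2-fold. Without replicate 1 of the wild-type group the median was 0.13 with 64 members above 0. It was 0.04 with 57 above 0 without replicate 6 of the Apoe-/- group and 0.00 with 40 above 0 without its replicate 1. On log2 TPM it was -0.42 with 0 members above 0, where the median of all genes was -0.29.

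When the sort effects of both genotypes were set against each other, 0 of 80 members passed by edgeR, DESeq2 and limma, where edgeR called 0% of all genes, and 1 member (Rps2) had an unadjusted p under 0.05, beside 2.42% of all genes. Of the members, 71 had negative values (median -0.11, beside -0.01 over all genes), with the ends at Rps2 and Rps7 (-0.46 ± 0.37) and at Rps27 (0.83 ± 0.90) and Rpl12 (0.55 ± 0.28). With the reads of copies added, Rps7 stood at -0.27, Rpl12 at 0.0808 and Rps27 at -0.15. The SE had a median of 0.30 over the members and 0.50 over all genes. The intervals of 73 members lay within 2-fold, and those of 27.0% of all genes did. Without replicate 3 of the Apoe-/- non-phagocytic group the median was 0.03 with 46 members above 0, and without its replicate 2 it was 0.00 with 40 above 0. On log2 TPM 56 members lay above 0.

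The members lie on 19 chromosomes. Chromosome 7, which carries Apoe (19696109 to 19699188), holds 14 of them. The nearest is Rps19, 5.19 Mb from Apoe (24884371 to 24889806), Rps16 lies at 8.65 Mb, and the farthest is Rplp2 at 122 Mb. Between the phagocytic groups the 14 genes had a median of -0.13 and 0 of them were above 0, beside a median of -0.16 for the 62 members on other autosomes, of which 8 were above 0. The 14 values ran from -0.36 for Rpl18 to -0.02 for Rpl27a. Between the non-phagocytic groups the medians were -0.07 for chromosome 7 and -0.04 for the other autosomes. The 4 members on the X chromosome (Rpl10, Rpl36a, Rpl39 and Rps4x) had a median of -0.17 between the phagocytic and -0.04 between the non-phagocytic groups.

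Genes that work with the ribosomal proteins were followed through 7 lists. edgeR called 0 genes of each list in each of the 5 comparisons, and limma on log2 TPM likewise 0. At an unadjusted p under 0.05, there were per comparison 0 to 1 of the translation factors, 0 to 4 genes of ribosome assembly, 0 to 2 of RNA polymerase I, 1 to 2 of growth control except 0 between the non-phagocytic groups, 0 to 1 of ribosome rescue and 2 to 6 mitochondrial ones. Over all genes the share at that p was between 2.42% and 9.93%. The 4 ribosomal proteins filed under other symbols, such as Rack1, a scaffold on the small subunit, had a median of -0.22 between the phagocytic groups, with 0 of 4 above 0 and none with an unadjusted p under 0.05 in any of the 5 comparisons. The 17 translation factors and partners whose mRNAs carry a TOP motif had a median of -0.14 there, with 2 of 17 above 0. Among them Eif3f, a subunit of initiation factor 3, had the largest value (-1.04 ± 0.29, unadjusted p = 0.00124, adjusted p = 0.393, edgeR).

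For the 31 genes of ribosome assembly the median was -0.11 between the phagocytic groups, with 10 above 0 and 4 at an unadjusted p under 0.05. The largest values were those of Rrp12 (-1.26 ± 0.37, adjusted p = 0.414, edgeR) and Rrs1 (-1.11 ± 0.34, adjusted p = 0.426, edgeR), both required for pre-ribosomes in yeast. Between the sorts in Apoe-/- cells, Rrs1 stood at -0.89 ± 0.33 and the list at a median of -0.14. The 19 genes of RNA polymerase I, which makes ribosomal RNA, had a median of -0.16 between the phagocytic groups with 0 at an unadjusted p under 0.05, and Taf1c, part of its promoter factor, stood at 0.95 ± 0.47 in the wild-type sort (adjusted p = 0.651, edgeR). DESeq2 called 1 gene of this list in any comparison, Taf1d, lower in the wild-type sort and named after its value was seen.

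Of 20 genes of mTORC1 and growth control, 18 were tested. Myc, which drives transcription of ribosome genes, stood at -0.89 ± 0.25 in the Apoe-/- sort (adjusted p = 0.127, edgeR) and at -0.64 ± 0.26 in the wild-type sort (adjusted p = 0.541, edgeR), and DESeq2 called Myc lower in the Apoe-/- sort and no other gene of the list. Between the phagocytic groups, Sesn2, an inhibitor of mTORC1, stood at -1.10 ± 0.52 and Max, the partner of Myc, at 0.63 ± 0.25. The 12 tested of 13 genes of ribosome rescue had medians between -0.16 and 0.02 in the 5 comparisons. The 78 mitochondrial ribosomal protein genes, which build the separate ribosome of mitochondria, had a median of 0.13 in the wild-type sort (57 above 0), 0.00 in the Apoe-/- sort (41 above 0) and -0.12 between the phagocytic groups (24 above 0), and Mrpl41 had the largest value in the wild-type sort (0.72 ± 0.24, adjusted p = 0.355, edgeR). For 15 host genes of small nucleolar RNAs, values were not analysed here.

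Marker levels of microglia and of other cells were set beside these comparisons. The 10 microglial markers had a median of -0.25 between the phagocytic groups (2 of 10 above 0) and -0.02 between the non-phagocytic groups (4 above 0). It was -0.20 in the Apoe-/- sort (3 above 0), -0.0015 in the wild-type sort (5 above 0) and -0.15 for the difference of the sort effects (0 above 0). edgeR called 0 of them in each comparison. The summed level of 10 monocyte markers was 1746 to 3625 CPM in Apoe-/- phagocytic and 611 to 1318 CPM in Apoe-/- non-phagocytic libraries, against 3139 to 8387 CPM in wild-type phagocytic and 738 to 4689 CPM in wild-type non-phagocytic libraries. edgeR called 1 of the 10 higher in phagocytic cells of Apoe-/- and 2 in those of wild-type retinas, beside 0.467% and 0.209% of all genes. It called 0 between the genotypes, where 0 of 10 were above 0 between the phagocytic and 2 between the non-phagocytic groups. The medians there were -1.29 and -1.13. Of the 10, 5 and 4 had an unadjusted p under 0.05 (edgeR) there, beside 6.62% and 3.8% of all genes, and 3 had one in each sort. The 10 markers of border macrophages summed to 413 to 1077 CPM in Apoe-/- phagocytic and 193 to 327 CPM in Apoe-/- non-phagocytic libraries, against 505 to 992 CPM in wild-type phagocytic and 261 to 375 CPM in wild-type non-phagocytic libraries. edgeR called 3 of the 8 tested higher in phagocytic cells of Apoe-/- and 2 in those of wild-type retinas. All 8 had an unadjusted p under 0.05 (edgeR) in both sorts, beside 9.93% and 7.74% of all genes. Their medians were 2.05 in the Apoe-/- and 2.20 in the wild-type sort. Between the genotypes, 2 of the 8 in phagocytic and 1 in non-phagocytic cells had such a p. Rod markers summed to 1613 to 7697 CPM in Apoe-/- phagocytic and 2223 to 4881 CPM in Apoe-/- non-phagocytic libraries, against 1064 to 4818 CPM in wild-type phagocytic and 1214 to 5758 CPM in wild-type non-phagocytic libraries. All 10 had positive values between the genotypes in both sorts, and 0 were called, with 0 and 1 at an unadjusted p under 0.05 in phagocytic and non-phagocytic cells and 0 called by DESeq2 or limma. Dendritic-cell markers summed to 420 to 2568 CPM in Apoe-/- phagocytic and 1141 to 4330 CPM in Apoe-/- non-phagocytic libraries, against 640 to 3628 CPM in wild-type phagocytic and 1079 to 12469.6 CPM in wild-type non-phagocytic libraries. Of these markers 8 were tested, and edgeR, DESeq2 and limma called 0 in both sorts. There 0 of the 8 were above 0. At an unadjusted p under 0.05 (edgeR) stood 2 in the Apoe-/- and 6 in the wild-type sort, beside 9.93% and 7.74% of all genes. The satellite-like share was 24.95 ± 8.83% in Apoe-/- phagocytic libraries (SD, n = 6) and 29.9 ± 15.5% in the Apoe-/- non-phagocytic ones (n = 6), against 17.2 ± 4.17% in wild-type phagocytic (n = 5) and 20.4 ± 9.95% in wild-type non-phagocytic libraries (n = 5). In fits that took this share as a covariate, the members' median was -0.07 in the Apoe-/- sort, 0.02 in the wild-type sort, -0.17 between the phagocytic groups and -0.08 between the non-phagocytic groups, and edgeR called 0 members in each. The part of the marker differences in the values of the ribosomal protein genes was not tested.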

How the data were processed

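Each library's deposited file holds, per the file headers, one line per transcript with its estimated count and its TPM. The submitters' processing notes list Salmon 1.4.0, DESeq2 1.30.1, R 4.0.3 and mm10, with no roles. Neither read filters nor a strand setting are given in the sources used here. Reads that fit several transcripts are divided among them in such estimates, so the counts of members with near-identical copies are uncertain.

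Transcripts were matched to GENCODE M21 (GRCm38, the same build as mm10). Of 116248 transcripts, 116072 matched. Estimated counts were summed per gene and rounded. The deposited gene table of FPKM values was not used here. edgeR 4.0.16 in R 4.3.3 tested genes by the quasi-likelihood method (TMM, filterByExpr by group, 1 fit of 4 groups without intercept, 22 libraries) with Benjamini-Hochberg adjustment over 12415 genes. DESeq2 1.42.0 and limma 3.58.1 were alternatives, and blastn 2.17.0 searched for copies. All 80 members passed the filter. The scripts were tested on simulated data.

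Members and lists were chosen with earlier results of these data known. The rule for named genes took members that were called, the 3 highest and lowest by mean TPM, the 2 largest values in each direction per comparison, paralogues, genes on chromosome 7, Rplp0, Rplp1, Rplp2, Rpsa, Rps6 and Rps19, and from each list the 2 largest values. Other members are named after their values were seen. Some genes that the rule takes are not reported here.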

Additional observations from a re-analysis of the deposited data

Results flagged for a closer look

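Among 84 combinations of a named member, or the summed share, with a group, 11 held a library far from the others of its group, where chance alone flags about 1 group in 20. Of these, 4 were replicate 1 of the wild-type non-phagocytic group. It had 1734 CPM of Rpl41 (other libraries of the group 755 to 887), 659.5 CPM of Rplp2 (284 to 364) and 173 CPM of Rps27l (62.8 to 74.3), and the members took 6.46% of its reads outside satellite-like genes (4.08% to 4.65%).

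In the Apoe-/- phagocytic group, replicate 2 had 207 CPM of Rpl22 (others 115 to 144), 294 CPM of Rps23 (150.5 to 187) and 152 CPM of Rps27l (83.4 to 96.6). Replicate 3 of that group had 1489 CPM of Rplp0 (1021 to 1142) and 886 CPM of Rps3 (699 to 755). Replicate 1 had 655 CPM of Rps2 (149 to 284). In the Apoe-/- non-phagocytic group, replicate 3 had 755 CPM of Rps6 (384 to 502).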

How the results depend on the processing

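Under 13 or 14 alternatives per comparison, calls among the members stayed at 0 except between the phagocytic groups, where Rps2 was called (1 member) without a filter on low counts (adjusted p = 7.08e-06, edgeR), with satellite-like genes left out (adjusted p = 0.0498, edgeR), with DESeq2 and with limma on log2 TPM at a pseudocount of 1. With 1 library left out in turn, calls there ran from 0 to 1. Rps2 was then called only without replicate 1 of the Apoe-/- or replicate 5 of the wild-type phagocytic group.

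The median over members between the non-phagocytic groups moved to -0.42 and -0.42 on log2 TPM with pseudocounts of 1 and 0.1, with 0 members above 0. Leaving out 1 library gave medians of -0.07 to 0.19 in the wild-type sort, -0.20 to 0.03 in the Apoe-/- sort, -0.22 to -0.08 and -0.19 to 0.13 between the genotypes in phagocytic and non-phagocytic cells, and -0.28 to 0.03 for the difference of the sort effects.

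Signs turned with copies added for Rpl5 in the wild-type sort (0.0746), Rpl12 between the phagocytic groups (-0.0284) and Rps27 (-0.0919 and -0.24 in the wild-type and Apoe-/- sorts, -0.23 between the phagocytic groups and -0.15 for the difference of the sort effects). On log2 TPM they turned between the non-phagocytic groups for Rps23 (-0.0631 and -0.0636) and Rps27l (-0.11 and -0.11). With 1 library left out, Rps27 ran from -0.32 (without replicate 2 of the phagocytic group) to 0.64 in the wild-type sort. The cause was not tested.

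The members' mean share over all gene reads was 3.11% in Apoe-/- phagocytic, 3.20% in Apoe-/- non-phagocytic, 3.74% in wild-type phagocytic and 3.77% in wild-type non-phagocytic libraries. As a share of TPM it was 5.56% in Apoe-/- phagocytic, 5.54% in Apoe-/- non-phagocytic, 7.10% in wild-type phagocytic and 7.09% in wild-type non-phagocytic libraries. The ranges overlapped, from 3.95% to 7.69%, 3.01% to 9.52%, 5.90% to 9.05% and 4.98% to 9.01% in the same order. Both totals include the satellite-like genes, whose mean share was higher in the Apoe-/- groups. Of reads outside satellite-like genes, the mean share with named pseudogenes added was 4.53% in Apoe-/- phagocytic, 5.02% in Apoe-/- non-phagocytic and 4.94% in wild-type phagocytic libraries. In wild-type non-phagocytic libraries that share ran from 4.45% to 7.05%. With near-identical copies added, the means were 5.06% in Apoe-/- phagocytic, 5.601% in Apoe-/- non-phagocytic, 5.503% in wild-type phagocytic and 5.83% in wild-type non-phagocytic libraries.

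For the sorts and their difference, the replicate number was used as a block within each genotype. Between the genotypes it was used across both, though no label links pools of different genotype. With the replicate number as a block, 0 members were called in each comparison, and all genes called numbered 135 and 255 in the wild-type and Apoe-/- sorts, 7 and 2 between the genotypes and 0 for the difference, against 26, 58, 4, 2 and 0 without it. Without a filter on low counts these were 122, 137, 96, 16 and 17, with DESeq2 103, 168, 19, 2 and 2, and with limma on log2 TPM at a pseudocount of 1 they were 23, 15, 7, 2 and 0. Same-numbered libraries correlated at 0.0499 to 0.275 in Apoe-/- and 0.0612 to 0.491 in wild-type pools, and 5 of 6 and 2 of 5 correlated best with their own number. Libraries of different number correlated at -0.256 to 0.283 in Apoe-/- and -0.405 to 0.318 in wild-type pools. All 11 same-numbered values were positive, and not every one was over 0.1. The labels state no pairing and these values do not settle it. The main fit took the libraries as unpaired, so its SEs and p-values for the sorts do not use it. With the block the members' median was -0.04 (21 above 0) in the Apoe-/- sort. The alternatives with copies added and the 2 libraries with over 40% satellite-like reads left out were chosen after seeing the data. Without those 2 libraries the members' median was -0.03 (30 above 0) in the Apoe-/- sort, -0.13 (11 above 0) between the non-phagocytic groups and -0.02 (32 above 0) for the difference of the sort effects. Counts of 1131240 to 3643670 reads per library, and the copies, limit what can be seen of members with few reads.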
